A study of Mus musculus with 6 samples.

Results

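Antioxidant and glutathione defence genes were followed in mouse embryonic fibroblasts, primary connective-tissue cells cultured from whole embryos, of 3 mutant genotypes measured against wild type. The 38 genes of a given list were looked up by the gene symbol of the array's annotation. Of these, 35 were among the 16504 named genes, and Gpx1, Prdx5 and Prdx6 had no spot under their symbol. The genotypes were the Wrn mutant, whose RecQ helicase gene Wrn carries an in-frame deletion within its helicase region, the PARP-1 null, which lacks the DNA-break sensor poly(ADP-ribose) polymerase 1, and the double mutant with both changes. All cells, the wild type included, had a 129/Sv-Black Swiss background, came from 15.5-day embryos, were grown in DMEM with calf serum, and gave cytoplasmic RNA at passage 2, after 10 population doublings. Each RNA pool held cells of 3 embryos of 1 litter, and a second litter gave another pool per genotype, so litter-to-litter spread within a genotype rests on 2 pools at most. Each genotype had 2 arrays, called here the first and the duplicate, and the title and source of the double-mutant duplicate name the double mutant while its strain label reads wild type. The labels name no treatment.

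Cells remove superoxide with superoxide dismutases and the resulting hydrogen peroxide with catalase, glutathione peroxidases and peroxiredoxins, which draw their electrons from glutathione or thioredoxin. Glutathione is also joined to reactive chemicals by glutathione S-transferases. Many of these genes are transcribed under NRF2, encoded by Nfe2l2, which is held in the cytoplasm and sent for degradation by KEAP1 until oxidants or electrophiles modify KEAP1, and which then binds antioxidant response elements in DNA. PARP-1 consumes NAD+ when DNA breaks activate it, and WRN is the helicase lost in human Werner syndrome, a disease of early ageing.

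RefSeq promoters (GRCm38.p6, from 250 bases before to 50 after a transcription start) were at hand for 32 of the 38 genes and were searched on both strands for 2 core strings of the antioxidant response element, TGACNNNGC and TGAGNNNGC. Either string stood in the promoter of 11 of the 32 members, 34.4%, and in 30.8% of all 27025 genes with an entry. Counted separately, TGACNNNGC stood in 25% of members and 14% of all genes, and TGAGNNNGC in 18.8% of members and 19.8% of all genes. A match is a string of letters, not a shown binding site. The 4 promoters below were chosen because they belong to the member that passed in all 3 genotypes (Gpx2) and to 3 members with a core string whose ratios differed (Srxn1, Gclm and Prdx1), all chosen after their values were seen. Each is written 5′ to 3′ along its gene, with matches to either core string, on either strand, in capitals. No matches overlap in them, and Gpx2 has none in this window.
Srxn1, chr2:152105274-152105573, plus strand: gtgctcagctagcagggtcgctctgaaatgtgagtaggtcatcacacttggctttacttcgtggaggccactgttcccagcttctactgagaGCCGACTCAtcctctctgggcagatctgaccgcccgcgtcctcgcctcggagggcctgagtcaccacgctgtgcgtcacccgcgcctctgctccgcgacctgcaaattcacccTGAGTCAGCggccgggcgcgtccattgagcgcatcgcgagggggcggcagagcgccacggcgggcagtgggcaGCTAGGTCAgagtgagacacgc
Gclm, chr3:122245307-122245606, plus strand: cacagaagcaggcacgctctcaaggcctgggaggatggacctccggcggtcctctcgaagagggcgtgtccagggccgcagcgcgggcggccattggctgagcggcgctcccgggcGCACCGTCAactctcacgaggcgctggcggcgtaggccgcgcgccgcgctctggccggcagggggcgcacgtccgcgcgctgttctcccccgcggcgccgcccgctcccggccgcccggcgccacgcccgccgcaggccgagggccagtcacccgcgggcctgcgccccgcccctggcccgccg
Prdx1, chr4:116685349-116685648, plus strand: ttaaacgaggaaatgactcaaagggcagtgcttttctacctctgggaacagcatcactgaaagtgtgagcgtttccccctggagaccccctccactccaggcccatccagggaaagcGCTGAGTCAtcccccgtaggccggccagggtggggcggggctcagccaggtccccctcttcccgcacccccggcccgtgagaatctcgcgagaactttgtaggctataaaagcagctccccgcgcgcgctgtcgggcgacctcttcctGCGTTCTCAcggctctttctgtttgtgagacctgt
Gpx2, chr12:76795505-76795804, minus strand: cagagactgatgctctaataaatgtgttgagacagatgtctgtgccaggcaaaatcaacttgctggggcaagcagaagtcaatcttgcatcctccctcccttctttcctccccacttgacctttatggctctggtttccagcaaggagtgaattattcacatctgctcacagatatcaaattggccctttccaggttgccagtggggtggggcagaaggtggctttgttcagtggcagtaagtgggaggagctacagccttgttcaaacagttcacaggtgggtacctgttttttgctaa

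All values are log2 ratios of 1 array, or means of 2 arrays with the SD between them (n = 2), read as mutant over wild type, so that -1 is a halving. This direction is likely, not certain. It rests on Parp1, which was -2.61 and -2.30 on the PARP-1 null arrays, -2.97 and -2.59 on the double-mutant arrays and -0.12 and -0.31 on the Wrn mutant arrays, whereas the usual Agilent ratio of Cy5 over Cy3 with the dyes in the labels would run the other way and mirror every sign given here. The Wrn probe, whose place relative to the deletion is not known here and which therefore checks nothing, was 0.84 and 0.58 on the Wrn mutant arrays and did not pass. Wild type was always in Cy5 and each mutant in Cy3, so a ratio to wild type contains any dye bias of its probe, and the genotypes share the wild type as partner. Similar values in several genotypes are therefore given side by side and not as separate evidence, while a fixed dye bias cancels between 2 mutants. The values are ratios without intensities, so no member has an absolute level, and with 2 arrays per genotype the number of arrays limits the precision. In RNA from whole cultures, fewer cells of a type and less RNA per cell cannot be told apart. Markers fixed for fibroblasts could only be read as ratios: their median was -0.11 on the first Wrn mutant array and 0.51 to 1.21 on the other 5 arrays.

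**Figure D1:**
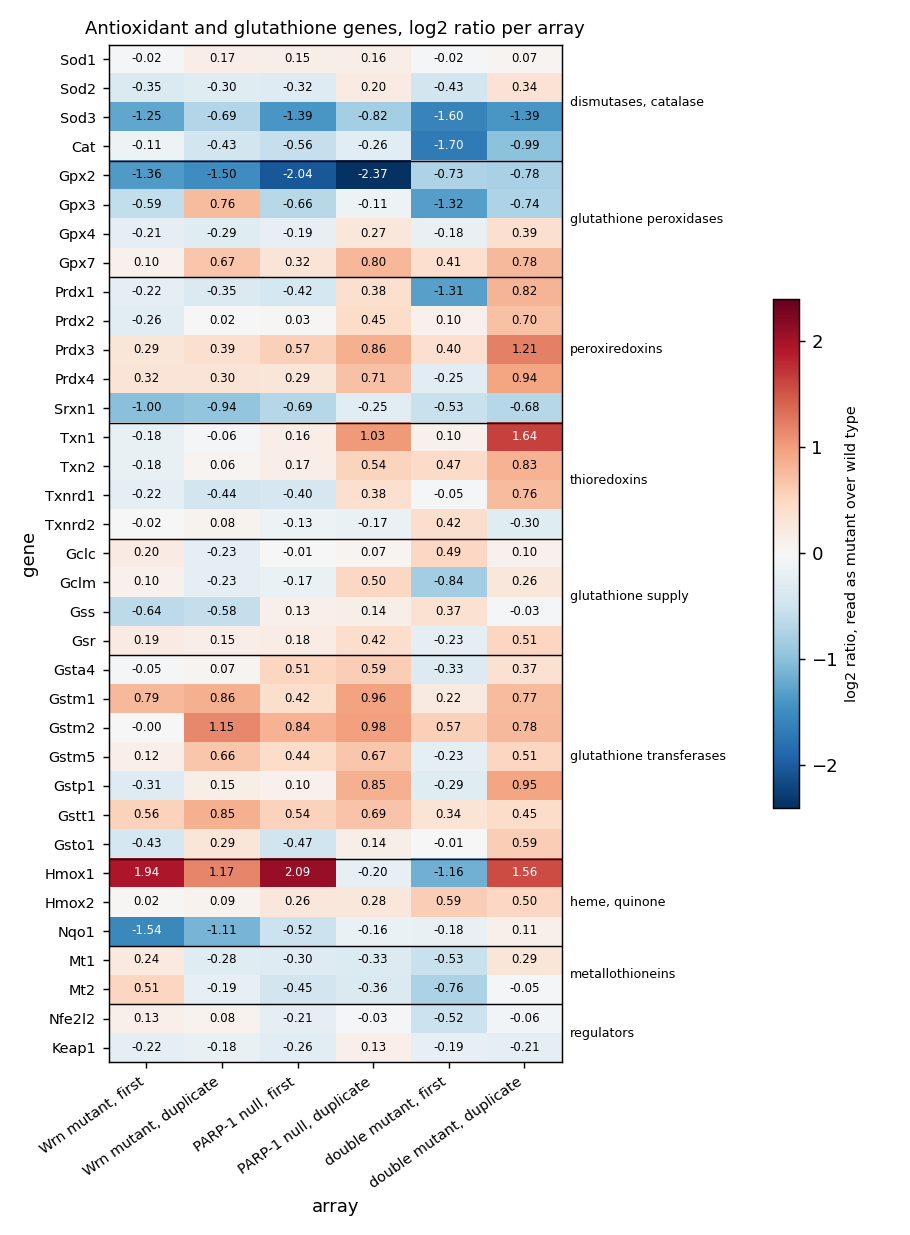
Heat map of log2 ratios (mutant over wild type as read here) of each of the 35 measured members (rows, grouped by role) on each of the 6 arrays (columns), with the value printed in each cell. Sod3, Cat, Gpx2 and Srxn1 are below 0 (blue) on all 6 arrays, and Gpx7, Prdx3, Gstm1, Gstt1 and Hmox2 above 0 (red) on all 6.

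Few members changed. In the Wrn mutant Gpx2 fell and no member rose, which is 2.86% of 35, while 2.35% of all named genes passed (limma, Benjamini-Hochberg adjusted p under 0.05 over all features), 1.01% of them higher and 1.34% lower. In the PARP-1 null Gstt1 and Hmox2 rose and Gpx2 fell, 8.57% of the members against 7.19% of all named genes (3.33% higher, 3.87% lower). In the double mutant Hmox2 rose and Sod3, Cat and Gpx2 fell, 11.4% of the members against 18.5% of all named genes (10.1% higher, 8.38% lower). These shares lie near the background, or below it in the double mutant, so the counts are no result about antioxidant genes as a set. With the arrays scaled to one spread the split became 1 higher (Gstt1) and 1 lower (Gpx2) for the Wrn mutant, and 1 higher (Hmox2) and 1 lower (Gpx2) for the double mutant. With exact zeros as missing, the PARP-1 null had 0 higher and 2 lower (Gpx2 and Sod3), since Gstt1 and Hmox2 no longer passed (adjusted p = 0.0615 and 0.290, limma). At an unadjusted p under 0.05 there were 7, 9 and 8 members in the same order, 20%, 25.7% and 22.9%, against 23.4%, 27.5% and 37.4% of named genes.

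The members lay on both sides of wild type. The median member of the Wrn mutant was at -0.020, that of the PARP-1 null at 0.13 and that of the double mutant at 0.14, while the median of all named genes was 0 in each. Counted without a test, both Wrn mutant arrays lay above 0 for 10 members and below 0 for 12, where 29.3% and 32% of named genes did so. For the PARP-1 null the counts were 16 above and 10 below (backgrounds 32% and 28.8%), and for the double mutant 10 above and 8 below (33.3% and 29.4%). A gene at exactly 0 on an array counted as neither, which lowers these backgrounds, while among the members only Sod1 had spots at exactly 0. At least 2-fold on both arrays were Hmox1 (higher), Gpx2 and Nqo1 (lower) in the Wrn mutant, where 4.07% of named genes were (1.44% higher, 2.62% lower). Gpx2 alone was so in the PARP-1 null (background 6.53%, with 2.7% higher and 3.84% lower), and Sod3 alone in the double mutant (10.7%, with 4.71% higher and 6.03% lower).

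Gpx2, a glutathione peroxidase known best from the gut epithelium, was the one member that passed in all 3 genotypes. It was the member furthest from wild type in the PARP-1 null, while the mean of Hmox1 was further in the Wrn mutant. In the double mutant the means of Sod3, Cat and Gpx3, below 0, and of Txn1 and Prdx3, above 0, were further. Its ratios were -1.36 and -1.50 on the Wrn mutant arrays, -2.04 and -2.37 on the PARP-1 null arrays, and -0.73 and -0.78 on the double-mutant arrays. The 3 pairs of arrays did not overlap: the PARP-1 null was lowest, the Wrn mutant lay between, and the double mutant was nearest to wild type. The means were -1.43 ± 0.10, -2.21 ± 0.24 and -0.76 ± 0.033 (SD, n = 2), that is 0.372, 0.217 and 0.593 of wild type, with adjusted p = 0.0172, 0.0104 and 0.0261 (limma, Benjamini-Hochberg). Between mutants, where a dye bias cancels, the double mutant lay above the PARP-1 null by 1.45 (SE 0.14), and every array of the one was at least 2-fold above every array of the other, which 0.37% of named genes showed in that direction. This difference did not pass (adjusted p = 0.447), nor did that to the Wrn mutant (0.67, SE 0.14, adjusted p = 0.220, limma). Of the 7 epithelial markers, all measured, the medians on the 6 arrays ran from -0.40 to 0.10. Epcam (-1.43 to -0.64) and Cldn4 (-1.13 to -0.20) lay below 0 on every array, whereas Krt8 lay above 0 on 5 of 6 (up to 1.58), and the part of such cells in the Gpx2 values was not tested. Leaving out single arrays ended some calls: the adjusted p was 0.062 to 0.101 in the Wrn mutant without any 1 of the 6 arrays and 0.0589 in the PARP-1 null without its duplicate array. In the double mutant it was 0.0697 without either Wrn mutant array and 0.145 and 0.119 without the first and the duplicate double-mutant array (limma, Benjamini-Hochberg).

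No other glutathione peroxidase among the members passed in any genotype. Gpx3, the secreted peroxidase of plasma, was -0.59 and 0.76 on the Wrn mutant arrays, -0.66 and -0.11 in the PARP-1 null and -1.32 and -0.74 in the double mutant, so the Wrn mutant arrays lay on both sides of 0. Its double-mutant mean was -1.03 ± 0.41 (adjusted p = 0.179, limma). Gpx7, a peroxidase of the endoplasmic reticulum, was above 0 on each array, from 0.10 to 0.80, with the largest mean, 0.59 ± 0.27, in the double mutant (adjusted p = 0.156). Gpx4, which reduces lipid hydroperoxides in membranes, stayed between -0.29 and 0.39.

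Among the enzymes that meet superoxide and hydrogen peroxide first, Sod3 and catalase fell in the double mutant. Sod3, the extracellular superoxide dismutase, was -1.25 and -0.69 for the Wrn mutant, -1.39 and -0.82 for the PARP-1 null and -1.60 and -1.39 for the double mutant. All 6 values lay below 0, the double-mutant arrays lowest or level with the lowest of the others. Its double-mutant mean of -1.50 ± 0.15 passed (0.354 of wild type, adjusted p = 0.0302), while -1.11 ± 0.40 in the PARP-1 null (adjusted p = 0.0723) and -0.97 ± 0.40 in the Wrn mutant (adjusted p = 0.114) did not (limma, Benjamini-Hochberg). Cat, which encodes the peroxisomal enzyme that splits hydrogen peroxide, was -0.11 and -0.43 for the Wrn mutant, -0.56 and -0.26 for the PARP-1 null, and -1.70 and -0.99 for the double mutant. The double-mutant arrays lay below all 4 others, and the mean of -1.34 ± 0.50 passed (0.394 of wild type, adjusted p = 0.0359). Against the single mutants Cat was lower by 1.07 (SE 0.31, Wrn mutant) and 0.93 (SE 0.31, PARP-1 null), and neither difference passed (adjusted p = 0.300 and 0.729, limma). Neither call in the double mutant held without any 1 of the 6 arrays, with adjusted p from 0.0632 to 0.169 for Sod3 and 0.0658 to 0.137 for Cat, nor with arrays scaled to one spread (0.0953 and 0.0534). Of 8 erythroid markers, listed because red cells are rich in catalase and peroxiredoxin 2, 5 were measured, with single values from -0.32 to 1.83. Their median was 0 on every array, but it came from exact zeros and does not show an unchanged ratio. Epor was exactly 0 on all 6 arrays and Klf1 on all but the first Wrn mutant array. The part of red cells in the Sod3 and Cat values was not tested.

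The cytosolic and mitochondrial dismutases showed no change that passed. Sod2, the mitochondrial enzyme, was -0.35 and -0.30 in the Wrn mutant and on both sides of 0 in the PARP-1 null (-0.32 and 0.20) and the double mutant (-0.43 and 0.34). Sod1, the cytosolic copper-zinc enzyme, had 11 spots whose average lay between -0.020 and 0.17, and this average hides a split between 2 probes. The 10 spots of one probe were exactly 0 on 10 and 9 of 10 for the Wrn mutant, 8 and 9 for the PARP-1 null and 10 and 10 for the double mutant, and the highest of the others was 2.04. The single spot of the other probe was -0.22 and -0.21 for the Wrn mutant, -0.12 and 0.66 for the PARP-1 null and -0.22 and 0.80 for the double mutant. In the PARP-1 null and the double mutant this spot lay below 0 on the first array and above it on the duplicate. What an exact 0 stands for is not said in the labels, so the averaged Sod1 value is uncertain.

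**Figure D2:**
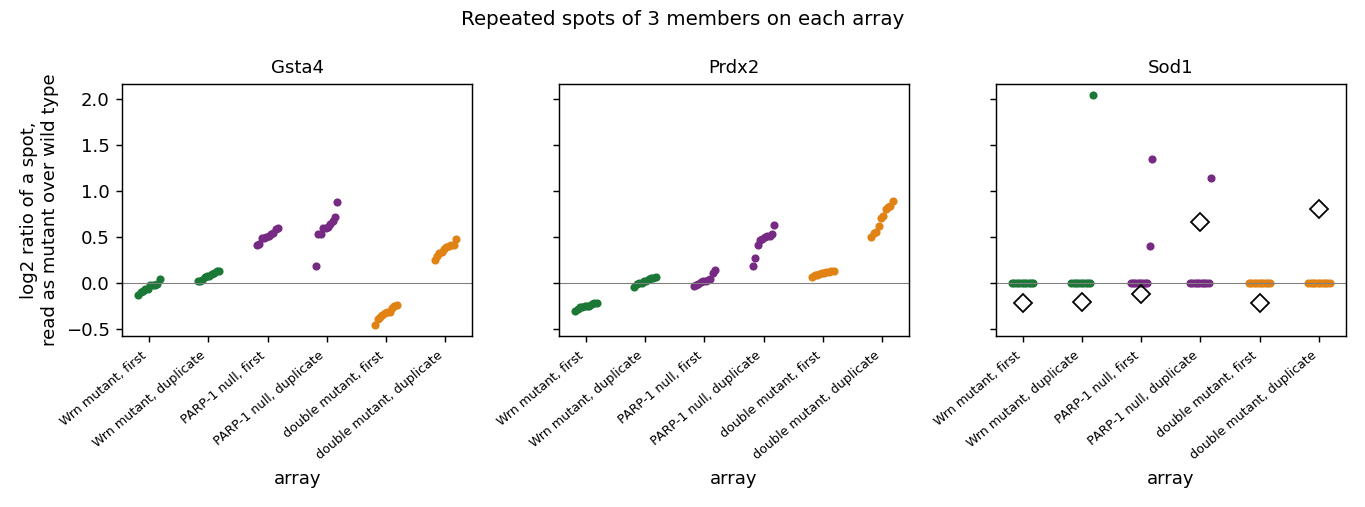
Log2 ratio of each spot (y axis) on each array (x axis) for the 3 members with 10 or more spots. Dots are the repeated spots of 1 probe and open diamonds the single other Sod1 spot. Gsta4 and Prdx2 spots cluster tightly within an array and shift between arrays, while most Sod1 dots lie exactly on 0.

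Repeated spots of Prdx2 and Gsta4 varied less within an array than their means did between the arrays of most genotypes. Prdx2, a cytosolic peroxiredoxin, had 10 spots whose SD within an array was 0.021 to 0.14. Its means were -0.26 and 0.017 for the Wrn mutant, 0.029 and 0.45 for the PARP-1 null and 0.10 and 0.70 for the double mutant, with the duplicate higher in each genotype. Gsta4, whose enzyme removes the lipid product 4-hydroxynonenal, had 10 spots with SDs of 0.042 to 0.18. In the double mutant its spots ran from -0.46 to -0.24 on the first array and from 0.25 to 0.47 on the duplicate, opposite directions without overlap. In the PARP-1 null the Gsta4 means were 0.51 and 0.59, on the Wrn mutant arrays -0.051 and 0.073.

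Peroxiredoxins, which reduce peroxides through a reactive cysteine, showed no call, and much of their spread lay between arrays. Prdx3, the mitochondrial form, was above 0 on every array at 0.29 and 0.39 for the Wrn mutant, 0.57 and 0.86 for the PARP-1 null and 0.40 and 1.21 for the double mutant (adjusted p = 0.439, 0.159 and 0.0953, limma). Prdx4, of the endoplasmic reticulum, was 0.32 and 0.30, 0.29 and 0.71, and -0.25 and 0.94 in the same order. Prdx1, a cytosolic form, was -0.22 and -0.35 for the Wrn mutant, -0.42 and 0.38 for the PARP-1 null and -1.31 and 0.82 for the double mutant, where the arrays disagreed in direction. Srxn1, whose product sulfiredoxin rescues overoxidised peroxiredoxins and which is a known NRF2 target, was below 0 on every array: -0.996 and -0.944 for the Wrn mutant, -0.69 and -0.25 for the PARP-1 null, and -0.53 and -0.68 for the double mutant. Its Wrn mutant arrays were the lowest, and its means of -0.97 ± 0.037 there and -0.61 ± 0.10 in the double mutant came close to the threshold without passing (adjusted p = 0.0551 and 0.0529). The SD between its 2 spots was 0.066 to 0.31 on an array. Of the 3 members shown above with a core string in the promoter, Srxn1 was thus low on each array, while Gclm and Prdx1 changed sign between arrays. They were chosen because they differed. Gstt1, which has a core string too, lay above 0 on every array.

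In the thioredoxin system no member passed. Txn2, the mitochondrial thioredoxin, was -0.18 and 0.064 for the Wrn mutant, 0.17 and 0.54 for the PARP-1 null, and 0.47 and 0.83 for the double mutant. Its double-mutant mean of 0.65 ± 0.26 missed the threshold (adjusted p = 0.0681, limma). Txn1, the cytosolic thioredoxin, was -0.18 and -0.055, 0.16 and 1.03, and 0.098 and 1.64 in the same order, so its high values came from the duplicate arrays. Txnrd1, its reductase, was -0.22 and -0.44, -0.40 and 0.38, and -0.052 and 0.76. Txnrd2, the mitochondrial reductase, lay between -0.30 and 0.42.

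Glutathione supply showed a low Gss in the Wrn mutant. Gss, glutathione synthetase, which makes the last step of synthesis, was -0.64 and -0.58 for the Wrn mutant, 0.13 and 0.14 for the PARP-1 null and 0.37 and -0.029 for the double mutant. Both Wrn mutant arrays lay below all other arrays, with a mean of -0.61 ± 0.041 that did not pass (0.656 of wild type, adjusted p = 0.0856). The double mutant lay 0.78 (SE 0.15) and the PARP-1 null 0.74 (SE 0.15) above the Wrn mutant, and neither difference passed (adjusted p = 0.210 and 0.386, limma). Gclc, the catalytic part of glutamate-cysteine ligase, which makes the first and limiting step, stayed between -0.23 and 0.49. Gclm, its modifier, was 0.10 and -0.23 for the Wrn mutant, -0.17 and 0.50 for the PARP-1 null and -0.84 and 0.26 for the double mutant. Gsr, which returns oxidised glutathione to its reduced form, was between -0.23 and 0.51, and its 2 spots lay as far apart as -0.98 and 0.53 on the first double-mutant array.

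Of the 7 glutathione S-transferases, Gstt1 rose in the PARP-1 null and no other call was made in any genotype. Their median on an array ran from -0.0060 to 0.69, and on the first Wrn mutant and first double-mutant arrays 4 of 7 lay below 0. Gstt1, of the theta class, was 0.56 and 0.85 for the Wrn mutant, 0.54 and 0.69 for the PARP-1 null and 0.34 and 0.45 for the double mutant. All 6 arrays lay above 0, with the double-mutant arrays lowest. Its PARP-1 null mean of 0.62 ± 0.11 was 1.54 times wild type and just passed (adjusted p = 0.0496), while 0.70 ± 0.21 for the Wrn mutant and 0.39 ± 0.078 for the double mutant did not (adjusted p = 0.0586 and 0.0721, limma). The call did not hold without any 1 of the 6 arrays (adjusted p from 0.0614 to 0.251) or with exact zeros as missing (0.0615, limma). Gstm1, of the mu class, was 0.79 and 0.86 for the Wrn mutant, 0.42 and 0.96 for the PARP-1 null and 0.22 and 0.77 for the double mutant, with adjusted p from 0.132 to 0.191. Gstm2 was -0.00070 on the first Wrn mutant array and 1.15 on the duplicate, 0.84 and 0.98 in the PARP-1 null and 0.57 and 0.78 in the double mutant. Gstm5 lay between -0.23 and 0.67. The mu-class genes are close paralogues and may share signal on a probe, so their values are uncertain as values of single genes. Gstp1, of the pi class, was -0.31 and 0.15, 0.099 and 0.85, and -0.29 and 0.95, and Gsto1, of the omega class, lay between -0.47 and 0.59, each on both sides of 0.

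The heme oxygenases, which break down heme, behaved differently from each other. Hmox2, the constitutive form, was 0.025 and 0.093 for the Wrn mutant, 0.26 and 0.28 for the PARP-1 null and 0.59 and 0.50 for the double mutant. The 3 pairs of arrays did not overlap, and the gap between the arrays of a pair was at most 0.089. Hmox2 rose by 0.27 ± 0.0093 in the PARP-1 null (1.21 times wild type, adjusted p = 0.0462) and by 0.55 ± 0.063 in the double mutant (1.46 times, adjusted p = 0.0114), a small change with little spread. The double mutant exceeded the Wrn mutant by 0.49 (SE 0.055), which did not pass (adjusted p = 0.126, limma). The PARP-1 null call did not hold without any 1 of the 6 arrays (adjusted p from 0.0759 to 0.214), and with exact zeros as missing it was 0.290, while the double-mutant call did not hold without its first (0.0829) or duplicate array (0.0571, limma). Hmox1, the form induced by heme and oxidants, was 1.94 and 1.17 for the Wrn mutant, 2.09 and -0.20 for the PARP-1 null and -1.16 and 1.56 for the double mutant. It had the widest gap between arrays of any member in both PARP-1 deficient genotypes, in opposite directions, and no mean passed (adjusted p = 0.402, 0.612 and 1, limma). Of 10 macrophage markers, listed because macrophages express Hmox1 and iron genes, 8 were measured. Their median ratios were 1.25 and 0.22 on the Wrn mutant arrays, with 8 and 5 of 8 above 0, and between -0.42 and -0.24 on the 4 other arrays, with 2 to 4 above 0. The part of such cells in the Hmox1 values was not tested.

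Nqo1, the quinone reductase often used as a readout of NRF2, was low in the Wrn mutant. Its ratios were -1.54 and -1.11 there, -0.52 and -0.16 in the PARP-1 null and -0.18 and 0.11 in the double mutant. The Wrn mutant arrays were at least 2-fold below wild type and below all 4 other arrays, but the mean of -1.32 ± 0.30 missed the threshold (0.40 of wild type, adjusted p = 0.0542). The double mutant, which carries the same Wrn deletion, lay 1.29 (SE 0.24) above the Wrn mutant and the PARP-1 null 0.98 (SE 0.24) above it, neither passing (adjusted p = 0.194 and 0.441, limma). The regulators themselves moved little. Nfe2l2 was 0.13 and 0.078 for the Wrn mutant, -0.21 and -0.025 for the PARP-1 null and -0.52 and -0.057 for the double mutant, and Keap1 lay between -0.26 and 0.13. Both proteins are controlled largely after transcription, so mRNA ratios do not measure NRF2 activity. The metallothioneins Mt1 and Mt2, cysteine-rich proteins that bind zinc and copper, were 0.24 and 0.51 on the first Wrn mutant array and -0.28 and -0.19 on its duplicate. In the PARP-1 null they lay between -0.45 and -0.30, and in the double mutant between -0.76 and 0.29, with no call.

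**Figure D3:**
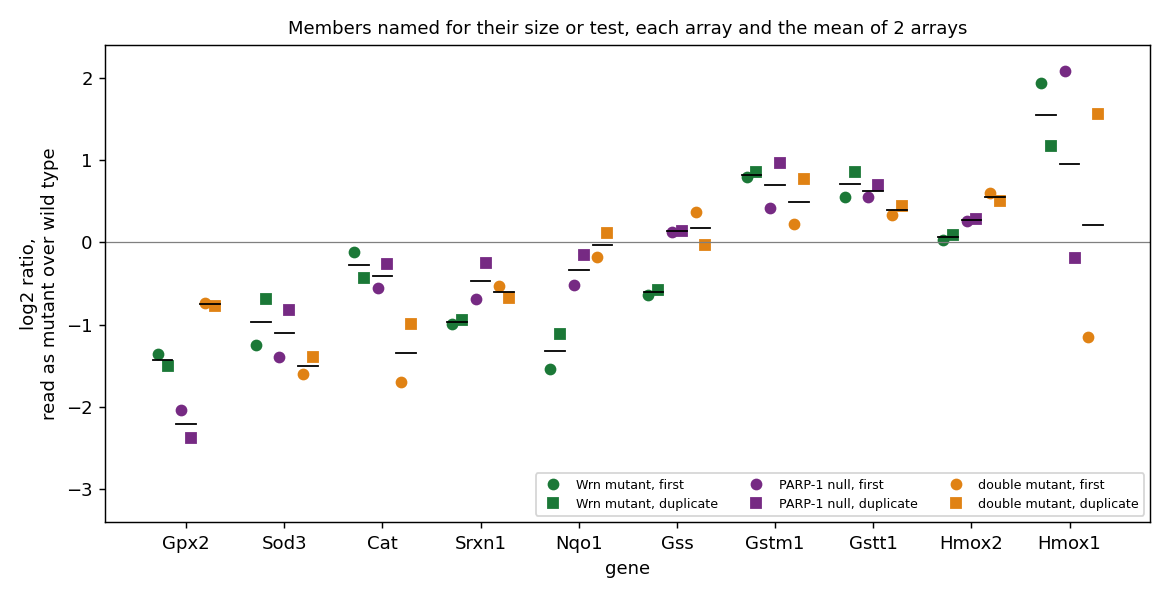
Log2 ratio (y axis, read as mutant over wild type) of 10 members (x axis), with circles for first arrays, squares for duplicate arrays and a short line for the mean of each genotype. Gpx2 pairs sit apart by genotype, Nqo1 and Gss are lowest in the Wrn mutant, Cat is lowest and Hmox2 highest in the double mutant, and Hmox1 arrays disagree.

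The duplicate arrays read higher than the first arrays over most members in the PARP-1 null and the double mutant. In the PARP-1 null 31 of 35 members (88.6%) were higher on the duplicate, against 52.6% of named genes, with a median gap of 0.36 for members and 0.034 for named genes. In the double mutant it was 28 of 35 (80.0%) against 45.7%, with a median gap of 0.58 for members and 0 for named genes. In the Wrn mutant 22 of 35 were higher on the duplicate (62.9%, against 45.5%), with a median gap of 0.068. The median member moved from -0.0065 on the first to 0.27 on the duplicate PARP-1 null array and from -0.19 to 0.39 in the double mutant. The median of the fibroblast markers also rose, from 0.83 to 1.02 in the PARP-1 null and from 0.51 to 0.94 in the double mutant. That of the macrophage markers went from -0.42 to -0.24 and from -0.31 to -0.33. A higher duplicate was therefore not particular to the members. The 2 arrays had the same sign for 26 of 35 members in the PARP-1 null, for 22 of the Wrn mutant and for 18 of the double mutant, where 60.8%, 61.3% and 62.7% of named genes did. A gene at exactly 0 on both arrays counted as not higher, and one at 0 on either array as not of the same sign. Among the members only Sod1 had spots at exactly 0, so the shares of named genes are lowered against those of the members. The labels do not say which litter or wild-type pool an array held, and the source of this gap was not tested.

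**Figure D4:**
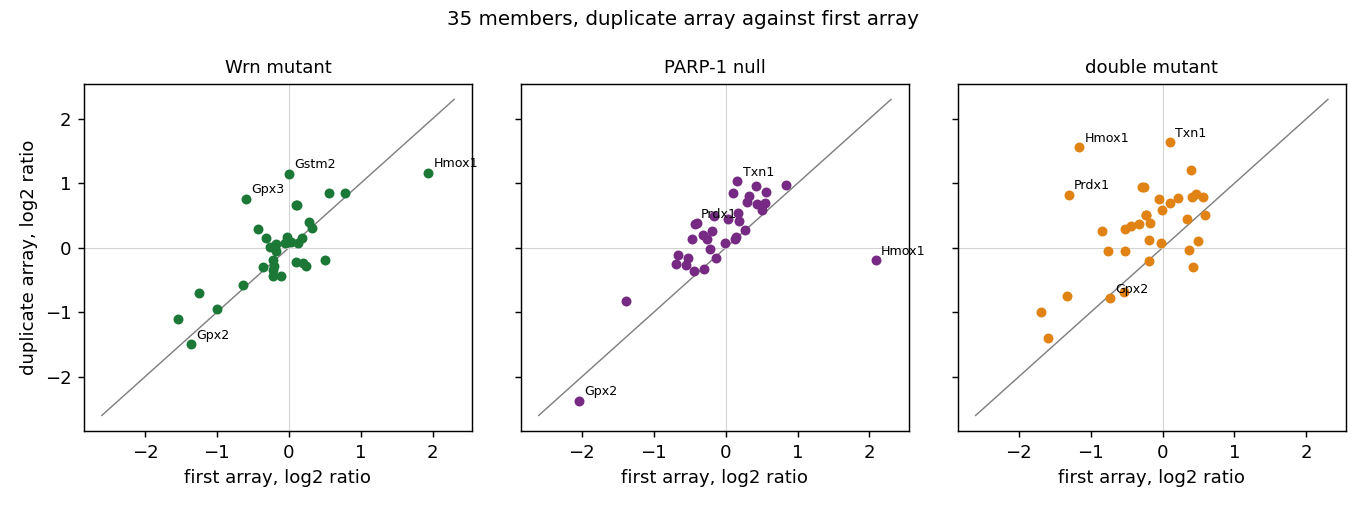
Log2 ratio of each of the 35 members on the duplicate array (y axis) against the first array (x axis) in each genotype, with the line of equal values. Most points of the PARP-1 null and the double mutant lie above the line, and Hmox1 lies far from it on opposite sides.

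Between the mutants no member passed, and the members counted below by an unadjusted p were named after their values were seen. For the double mutant against the Wrn mutant 0 of 35 passed (0% of named genes did), and 6 had an unadjusted p under 0.05 in limma, 17.1% of members against 15.1% of named genes. These 6 were Hmox2, Gss, Nqo1, Gpx2 and Txn2, higher in the double mutant, and Cat, lower. For the double mutant against the PARP-1 null 0 of 35 passed (0% of named genes), with 3 at an unadjusted p under 0.05 (Gpx2 and Hmox2 higher, Cat lower), 8.57% against 7.16% of named genes. For the PARP-1 null against the Wrn mutant 0 of 35 passed (0.00606% of named genes), with 4 at an unadjusted p under 0.05 (Gss, Nqo1 and Hmox2 higher, Gpx2 lower), 11.4% against 8.8%. These shares are near the background. Every double-mutant array lay above both Wrn mutant arrays for 11 members and below both for 6 (24% and 17.6% of named genes). Against the PARP-1 null the counts were 3 above and 7 below (19.2% and 13.2%), and for the PARP-1 null against the Wrn mutant 10 above and 5 below (18.4% and 14.8%). A gene at exactly 0 on an array of each mutant counted as neither, which lowers the shares of named genes. A gap of at least 2-fold between every pair of arrays was seen for 0 members between the double and the Wrn mutant (2.4% of named genes, 1.36% higher and 1.04% lower), for Gpx2 between the double mutant and the PARP-1 null (0.66%, with 0.37% higher and 0.291% lower) and for 0 between the PARP-1 null and the Wrn mutant (1.62%, with 0.788% higher and 0.836% lower). A p above the threshold does not show that the genotypes were alike in these genes. The SEs of the differences named above were 0.055 to 0.31, and over all measured members they ran up to 1.34 (Hmox1).

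A wider redox list of 89 genes, with other glutathione transferases, NADPH enzymes, thiol reductases, NRF2 partners and targets, iron genes and oxidant producers, had 81 measured. Between the mutants 0 of the 81 passed in any pair, where at most 0.00606% of named genes did. In the Wrn mutant 1 rose and 2 fell (3.70%, background 2.35%). Slc40a1, the iron exporter ferroportin, rose with 1.46 and 1.85 (3.15 times wild type, adjusted p = 0.0169), while it was 0.35 and 0.23 in the PARP-1 null and -0.10 and -0.21 in the double mutant. Its differences to the Wrn mutant did not pass, with adjusted p = 0.203 for the PARP-1 null and 0.105 for the double mutant (limma). The median of the macrophage markers above was 1.25 and 0.22 on the Wrn mutant arrays, and their part was not tested. Pir, which encodes the iron-binding nuclear protein pirin and is known as an NRF2 target in human cells, fell in the Wrn mutant with -1.44 and -1.85, as did Gstm4 with -0.99 and -1.20 (adjusted p = 0.0275 and 0.0234, limma).

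In the PARP-1 null 2 of the 81 rose and 2 fell (4.94%, background 7.19%). Glo1, the glyoxalase that uses glutathione to clear methylglyoxal, rose with 2.04 and 2.45 (4.74 times wild type, adjusted p = 0.0170), against -0.15 and -0.048 in the Wrn mutant. The difference of the PARP-1 null to the Wrn mutant did not pass (2.34, SE 0.25, adjusted p = 0.185, limma). Cbr1, a carbonyl reductase, rose with 0.68 and 0.54 (adjusted p = 0.0167). Pir was -1.69 and -1.33 and Gstm4 -0.78 and -0.99, and both fell (adjusted p = 0.0241 and 0.0255, limma). In the double mutant 7 rose and 5 fell (14.8%, background 18.5%). The largest increases were in Gpx6, a peroxidase known from olfactory tissue, at 2.39 and 2.17, Mgst2, a microsomal transferase, at 1.88 and 2.06, and Glo1 at 1.31 and 1.84 (adjusted p = 0.0474, 0.0339 and 0.0220). Mafg, a small Maf partner of NRF2, fell with -2.07 and -1.61 and Pir with -1.83 and -1.79 (adjusted p = 0.0261 and 0.0135, limma). Nox4, an oxidase that makes hydrogen peroxide, fell with -1.84 and -1.28, and Gstm4 with -1.20 and -1.08 (adjusted p = 0.0260 and 0.0126, limma). Of these, none held with each array left out in turn: the highest adjusted p then ran from 0.0731 for Slc40a1 in the Wrn mutant to 0.228 for Gpx6 in the double mutant (limma, Benjamini-Hochberg).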

How the data were processed

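Agilent 2-colour long-oligonucleotide arrays were hybridised with wild-type cRNA in Cy5 and mutant cRNA in Cy3, per the labels, on 6 arrays, 2 for each of 3 genotypes. The authors deposited 1 log10 ratio per spot for each of 22393 spots. Base 10 was inferred because no value exceeds 2 in size. Centring, background correction, spot filters and direction are not stated in the labels. The median was 0 on all arrays, and 16.9% to 23.7% of spots of an array were exactly 0. Correlations over all spots were 0.752 to 0.802 between the 2 arrays of a genotype and 0.606 to 0.847 between arrays of different genotypes, so arrays did not group by genotype.

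Values were multiplied by 3.32 to give log2 ratios, and spots with 1 symbol were averaged per gene (16504 named genes, 20679 features with unnamed spots). One limma 3.58.1 fit in R 4.3.3 (lmFit, eBayes) of all 6 arrays had a coefficient per genotype, 3 residual and 0.66 prior degrees of freedom, and Benjamini-Hochberg adjustment over all features (threshold 0.05). The fit was run on simulated data with independent errors, without exact zeros or shifts shared across an array. Such a run does not test the p-values of these arrays. The p-values rest on the spread among these 6 arrays, part of which may be technical, and a ratio against 0 leaves out some of the wild type's own spread. The members and lists were chosen with earlier results of these data known. All measured members were named, and of the wider list at most 3 higher and 3 lower genes that passed per comparison, by size. Gstm4 was also given for the double mutant, because it was named in both single mutants. Plots were drawn with matplotlib 3.10.9. Samples were grouped by the source label of the mutant channel. Alternatives were exact zeros as missing, arrays scaled to one spread, single spots, the compared arrays alone, a block for array number, a 2-fold rule and each array left out.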

Additional observations from a re-analysis of the deposited data

How the results depend on the processing

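Against wild type 1 member passed for the Wrn mutant, 3 for the PARP-1 null and 4 for the double mutant. With exact zeros as missing it was 3 in the Wrn mutant, and with arrays scaled to one spread 2 for the Wrn mutant and for the double mutant. Fitted on the arrays of the genotype alone, where 0 of all named genes passed, it was 0 in each. By the rule of 2-fold on both arrays, which has no test, it was 3, 1 and 1, and 1 for the double mutant against the PARP-1 null. Without 1 array it ran from 0 to 0 for the Wrn mutant, 0 to 1 for the PARP-1 null, 0 to 3 for the double mutant, 0 to 1 for the double mutant against the PARP-1 null and 0 to 0 for the other pairs. Each of the 6 arrays feeds the shared spread, and leaving any out moved a count by more than 1.5 times. Of all named genes 388, 1187 and 3052 passed in the 3 genotypes. With exact zeros as missing these were 883, 2231 and 4350, with scaled arrays 940, 1223 and 1013, with the block 0, 0 and 1215, and without 1 array 0 to 768, 56 to 597 and 32 to 1308. The median member of the Wrn mutant was 0.064 without its first array, and that of the double mutant -0.19 without its duplicate and 0.39 without its first array. The lone array left in a genotype is assumed to vary like the others.

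With array number as a replicate block the counts were 0, 0 and 5. The numbers did not pair the arrays: deviations from genotype means correlated at -0.114, -0.168 and 0.171 over genes. Of the values of single genes that passed or came close, 0 reversed. This shows nothing, because both arrays of the genotype lay on the same side of 0 and no alternative could change that. Over all alternatives a call was lost 190 times and gained 8 times. With exact zeros as missing Gstt1 (0.0615), Hmox2 (0.290) and Cbr1 (0.0534, limma) were lost in the PARP-1 null. Srxn1 and Nqo1 passed in the Wrn mutant with exact zeros as missing (adjusted p = 0.0363 and 0.0195), as did Sod3 in the PARP-1 null (0.0270, limma) and Prdx3 in the double mutant (0.0476, limma). Txn2 passed in the double mutant with the block (0.0424, limma), and Gstt1 passed in the Wrn mutant under scaling (0.0418, limma). Signal over background is unknown, so dim probes could not be set apart.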
